A study of Mus musculus with 4 samples.

Results

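TGF-beta signaling in tumor-infiltrating T cells was examined through 8 of the 32285 genes in the count tables: the ligand Tgfb1, the receptors Tgfbr1 and Tgfbr2, the signal transducer Smad3, the inhibitory Smad7, and the nuclear corepressors Ski, Skil and Tgif1. The genes were taken by symbol, and their levels were read in 4 kinds of cells set by UMIs (distinct RNA molecules) of marker genes. CD8 cells lacked Cd4 UMIs and held Cd8a or Cd8b1 UMIs, conventional CD4 cells had a Cd4 UMI and no Foxp3 UMI, regulatory cells had both Cd4 and Foxp3 UMIs, and Siglech cells had at least 2 UMIs of Siglech, a surface lectin of plasmacytoid dendritic cells. Barcodes with fewer than 600 genes, or with 30% or more of their UMIs from mitochondrial genes, were left out. This gave 5549 CD8, 1768 conventional CD4, 1528 regulatory and 221 Siglech cells among 10224 WT cells, and 4350, 3048, 1270 and 138, respectively, among 9946 VISTA-KO cells. A Siglech cell could also meet a T cell definition, and 1369 WT and 1264 VISTA-KO cells met none.

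The cells came from B16 melanoma, a transplantable mouse tumor, grown in Vsir fl/fl mice on the C57BL/6 background. Vsir encodes VISTA, an immune checkpoint protein. The VISTA-KO mice also carried CD4-Cre, which acts in T cells of both lineages because the Cd4 promoter is active during thymic development, and the WT mice were littermates without Cre. All mice were 6 to 8 weeks old and were given a peptide vaccine on day 3 and 100 µg of antibody against CTLA-4 on days 4 and 8 after the tumor cells, as the study methods give it. Cells were isolated on day 18 after treatment, and the tumors of 5 to 6 mice (6 to 8 tumors by another statement of the study) were pooled per genotype before enrichment and sorting of the CD4+ and CD8+ fractions. Each genotype was thus 1 pool and 1 library, with no replicate, so that the spread between mice is unknown and no difference between genotypes could be tested.

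TGF-beta is secreted in a latent form, held by carrier proteins such as the one encoded by Lrrc32, and is released by integrins. The active ligand binds TGFBR2, which recruits and phosphorylates TGFBR1, and this in turn phosphorylates SMAD2 and SMAD3. These enter the nucleus with SMAD4 and turn genes on or off. SMAD7 blocks the receptors and is itself induced by the pathway. SKI and SKIL (SnoN) bind SMADs and recruit corepressors, and TGIF1 is a homeodomain corepressor that binds SMAD2 or SMAD3. In T cells the pathway restrains effector functions, supports the regulatory lineage, and induces the integrin chain encoded by Itgae.

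In RefSeq annotation of GRCm38.p6, the build of the deposited tables, Tgif1 (ENSMUSG00000047407) lies on chromosome 17 from 70844205 to 70853532. Its promoter is shown because Tgif1 gave the largest difference between the libraries among the 8 genes. The 250 bases before the most distal of 5 annotated starts, on the minus strand (chr17:70853533-70853782), are given from 5′ to 3′, with the SMAD half-site CAGACA in capitals.
Tgif1: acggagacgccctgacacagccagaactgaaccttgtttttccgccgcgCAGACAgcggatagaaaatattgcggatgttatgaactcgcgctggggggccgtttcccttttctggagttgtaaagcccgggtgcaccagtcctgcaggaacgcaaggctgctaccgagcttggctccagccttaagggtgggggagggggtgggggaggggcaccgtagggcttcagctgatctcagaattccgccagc
Promoters of 6 of the 8 genes were searched on both strands for CAGACA, the palindrome GTCTAGAC, the AP-1 site TGANTCA and the CRE TGACGTCA. No promoter of Smad7 or Skil was searched, so the matches and absences below say nothing about these genes. CAGACA or its complement occurred before 2 of the 5 Tgif1 starts and before 1 Tgfbr1 start, and in 17.1% of the 32851 windows of the same length on the other chromosomes. The AP-1 site, the CRE and the palindrome, which are in 6.75%, 1.55% and 0.167% of those 32851 windows, were in none of the windows of the 6 genes. A match is a run of letters and not a site of binding, and counts per gene do not show which start was used.

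Marker genes showed some mixing of the kinds. Siglech, Foxp3, Cd8a and Cd8b1 set the kinds and are also in the marker lists. The sum of a list in the kind that its own genes set is therefore partly fixed in advance. None of the 5 T cell markers was at 0 in Siglech cells, and they summed to 4751 to 5505 CPM in the 3 T cell kinds against 1497 (WT) and 742 (VISTA-KO) CPM in Siglech cells. CPM are counts per 1000000 UMIs of the kind and library. The 6 plasmacytoid dendritic cell markers summed to 10383 and 11984 CPM in Siglech cells, 1510 and 798 in conventional CD4 cells, and 489 to 549 in the other T cells. The regulatory cells differed in depth and in mixing. Their median UMIs were 8838.5 in WT and 5939 in VISTA-KO, and 794 of 1528 WT against 375 of 1270 VISTA-KO cells also held Cd8a or Cd8b1 UMIs. Their summed Cd8a and Cd8b1 level was 857 CPM for WT and 389 CPM for VISTA-KO, and the 5 regulatory T cell markers summed to 2564 and 3284 CPM. Conventional CD4 cells differed in mixing too, as 578 of 1768 cells in the WT library and 638 of 3048 in the VISTA-KO library held Cd8a or Cd8b1 UMIs. Medians were 4848 and 5224.5 in CD8 cells, 4105.5 and 4223.5 in conventional CD4 cells, and 9181 and 9485.5 in Siglech cells. Melanoma transcripts were uneven, at 10.2 and 194 CPM in CD8 cells, 204 and 15.7 in conventional CD4 cells, and 5.57 and 190 in regulatory cells of WT and VISTA-KO. Between the libraries, 144 barcodes were shared. Vsir stood at 112 and 111 CPM in CD8 cells, which checks neither label, since the counts do not separate the deleted exons. Nr4a1 was listed here with genes of stress and recent stimulation, which were not told apart. A Nr4a1 UMI was found in 30.3% of WT and 54.9% of VISTA-KO CD8 cells, and in 35.0% and 68.9% of conventional CD4 cells. The shares were 53.5% and 76.6% of regulatory cells, and 35.3% and 64.5% of Siglech cells.

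Of the 8 genes, Tgif1 differed most between the genotypes and was higher in VISTA-KO in every kind of cell, although in Siglech cells without a Nr4a1 UMI its log2 ratio was -0.11. Smad7 was higher in the 3 T cell kinds, Tgfbr2 was slightly lower in them, and Tgfb1 was slightly higher in all 4 kinds. Skil, Smad3, Tgfbr1 and Ski were higher in regulatory cells, where the depth, mixing and share of dividing cells also differed. In CD8 cells, Skil and Tgfbr1 were higher to a smaller degree. In conventional CD4 cells so were Skil and Smad3, though not under every setting. Differences were read against all genes with at least 20 CPM in 1 library, as the log2 ratio of CPM + 5, and those of at least 0.5 in size were counted. In CD8 cells, 1.78% of 6083 genes passed this size, and of the 5 genes of interest that met the level, Tgif1 did. In conventional CD4 cells, 4.25% of 6336 genes passed, and again Tgif1 did among 7. In regulatory cells, 5.33% of 6281 genes passed, and so did 4 of the 8 (Tgif1, Smad3, Tgfbr1 and Skil), but Smad3 and Tgfbr1 met the level only through the VISTA-KO library, where they were high. The count of 4 was 3 (Tgfbr1, Smad3 and Tgif1) without cells with a UMI of Mki67, a gene of dividing cells. In cells without a Nr4a1 UMI it was also 3 (Smad3, Skil and Tgif1). It was 2 (Smad3 and Tgif1) after thinning each cell at random to 2000 UMIs, and 1 (Tgif1) with each cell held to 1 kind. That alternative left out T cells that were also Siglech cells. It also left out conventional CD4 and regulatory cells with a Cd8a or Cd8b1 UMI. What remained was 732 WT and 893 VISTA-KO regulatory cells. In Siglech cells, 9.04% of 6405 genes passed, and Tgif1 did among 6. The median log2 ratio of all 8 genes, also those under the level, was 0.12, 0.15, 0.50 and 0.13 in these kinds. For all genes that met the level it was -0.02, -0.04, -0.01 and -0.02. The 8 genes were chosen with earlier results of these data known, so these counts and medians are no independent comparison with all genes.

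**Figure D1:**
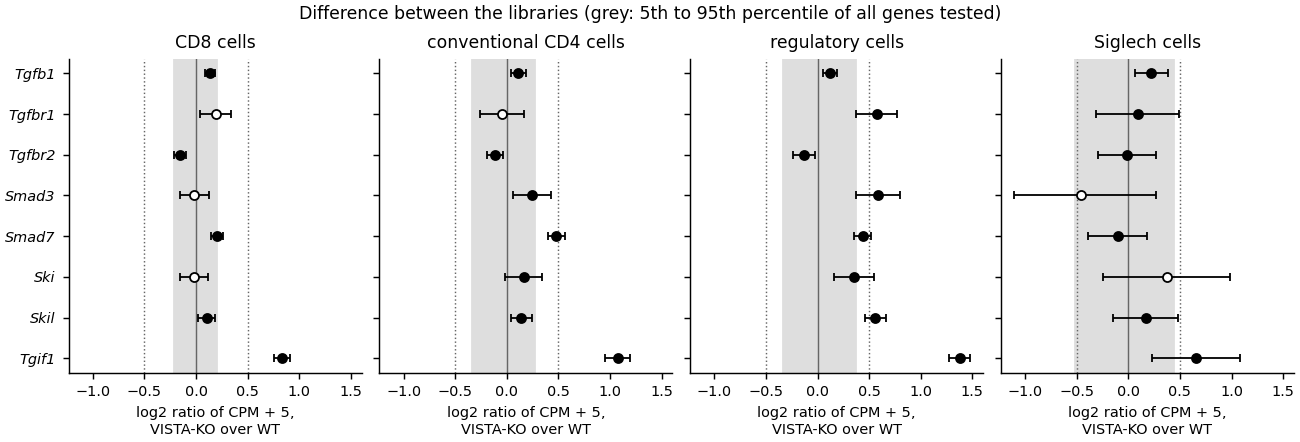
Log2 ratio of CPM + 5, VISTA-KO over WT, for each gene (vertical axis) in 4 kinds of cells, with 95% counting intervals. Open circles are genes under 20 CPM in both libraries, grey bands span the 5th to the 95th percentile of all genes tested, and dotted lines mark 0.5 in size. Tgif1 lies above the grey band in all 4 panels, with values of 0.83, 1.08, 1.38 and 0.65.

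Tgif1 stood at 50.9 CPM (48.6 to 53.2) for WT against 94.4 CPM (90.8 to 98.0) for VISTA-KO CD8 cells. Intervals given with CPM and CPM ratios are exact 95% Poisson intervals. Those of log2 ratios combine the Poisson intervals of both levels and are approximate. All cover counting error only. The ratio was 1.86 (1.75 to 1.97), which was rank 27 from the highest log2 ratio among the 6083 genes. For conventional CD4 cells, Tgif1 was at 60.5 and 133 CPM, a ratio of 2.20 (2.01 to 2.40) and rank 16 of 6336. With each cell held to 1 kind, the log2 ratio there was 1.22. In regulatory cells it was at 67.2 and 182 CPM, a ratio of 2.71 (2.52 to 2.92) and rank 19 of 6281. The T cell kinds thus kept the same order in both libraries, with regulatory cells highest and CD8 cells lowest, and each neighboring pair differed beyond counting error. Siglech cells had the lowest Tgif1, 29.3 CPM (23.0 to 36.7) for WT against 48.9 CPM (38.1 to 61.8) for VISTA-KO, with a ratio of 1.67 (1.19 to 2.35). These rest on 75 and 70 UMIs. The log2 ratio of 0.65 in Siglech cells was 0.84 (-0.36 to 2.01) after thinning, -0.11 (-1.04 to 0.80) in cells without a Nr4a1 UMI, and 0.94 (0.16 to 1.70) without cells that held a Cd3e UMI, a choice made after the data were seen.

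The plot of levels shows all 8 genes by kind of cell and library.

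**Figure D2:**
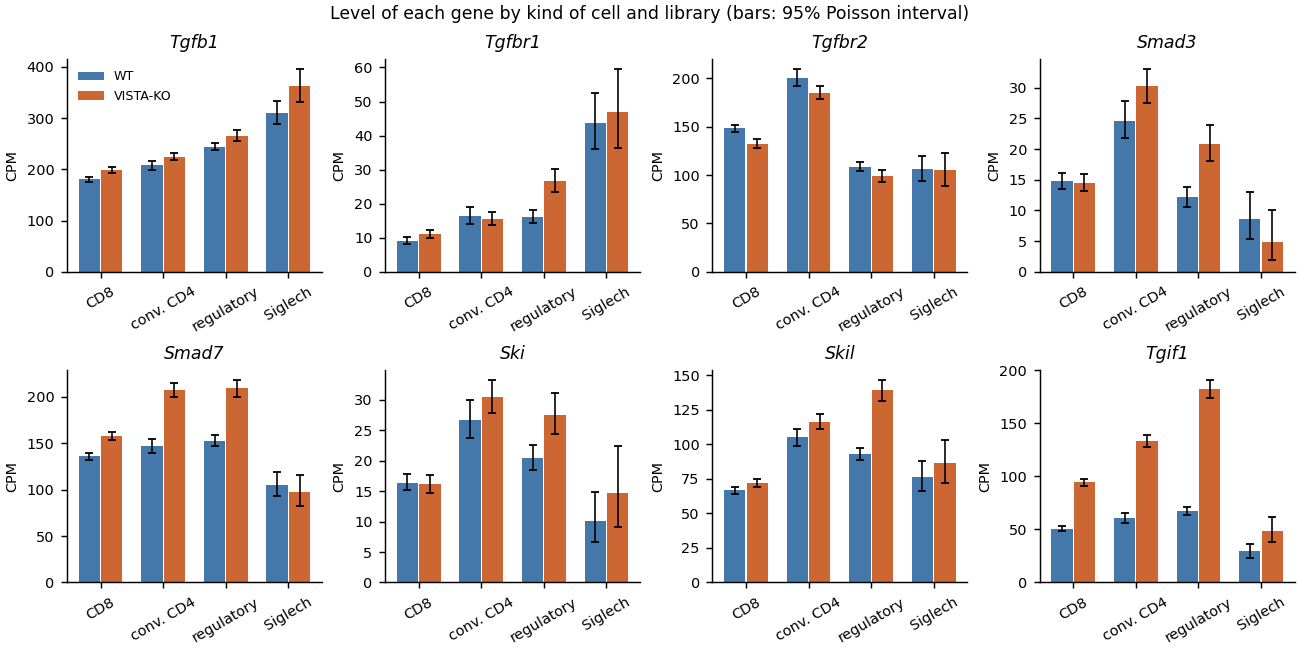
Level of each gene in CPM (vertical axes, each from 0) in 4 kinds of cells, with WT in blue and VISTA-KO in orange and bars of the 95% Poisson interval. Tgfb1 and Tgfbr1 are highest in Siglech cells, Tgfbr2 in conventional CD4 cells, and the orange Tgif1 bars exceed the blue ones in every kind.

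The ligand gene Tgfb1 followed the same order of kinds in both genotypes. It was highest in Siglech cells, at 310 CPM (289 to 332) for WT against 363 CPM (332 to 395) for VISTA-KO, then in regulatory cells (244 and 266 CPM), conventional CD4 cells (208 and 225 CPM) and CD8 cells (180 and 199 CPM). Each neighboring pair in this order differed beyond counting error in both libraries. The genotype ratios were small, 1.10 (1.06 to 1.14) in CD8 cells, 1.08 (1.03 to 1.14) in conventional CD4 cells, 1.09 (1.04 to 1.14) in regulatory cells and 1.17 (1.05 to 1.31) in Siglech cells. All of these were higher in VISTA-KO and all fell within the 5th to 95th percentile of all genes. In conventional CD4 cells without a Nr4a1 UMI, the log2 ratio changed sign to -0.05. In regulatory cells, the log2 ratio of 0.12 lay between 0.05 and 0.15 over 11 alternatives. It was 0.05 (-0.06 to 0.15) with each cell held to 1 kind and 0.12 (-0.04 to 0.27) without Nr4a1 UMIs. In regulatory cells of 3000 to 10000 UMIs, a window chosen after the data were seen, it was 0.05 (-0.06 to 0.16).

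The receptor genes were highest in different kinds of cells. Tgfbr2, which encodes the ligand-binding chain, was highest in conventional CD4 cells (201 CPM for WT against 185 CPM for VISTA-KO), lower in CD8 cells (148 and 132 CPM), and lowest in regulatory cells (109 and 99.2 CPM) and Siglech cells (106 and 105 CPM), which could not be ordered beyond counting error. Tgfbr1, which encodes the signaling chain, was highest in Siglech cells, at 43.7 CPM (36.02 to 52.6) for WT against 46.8 CPM (36.3 to 59.5) for VISTA-KO. Its level in CD8 cells was 9.11 and 11.1 CPM, so that Siglech cells held 4.80-fold (3.84 to 5.96) and 4.21-fold (3.19 to 5.50) the CD8 level. Conventional CD4 cells had 16.4 and 15.6 CPM and regulatory cells 16.2 and 26.6 CPM.

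Between genotypes, Tgfbr2 was lower in VISTA-KO in the T cell kinds, with ratios of 0.894 (0.857 to 0.932) in CD8, 0.922 (0.872 to 0.975) in conventional CD4 and 0.912 (0.843 to 0.985) in regulatory cells, and 0.991 (0.806 to 1.21) in Siglech cells. With each cell held to 1 kind, the log2 ratio in regulatory cells was 0.02. Tgfbr1 gave 1.22 (1.04 to 1.43) in CD8 cells, 0.957 (0.786 to 1.17) in conventional CD4 cells, 1.64 (1.38 to 1.94) in regulatory cells and 1.07 (0.779 to 1.46) in Siglech cells. The regulatory difference in Tgfbr1 was smaller under several alternatives. Its log2 ratio of 0.57 was 0.09 after thinning each cell to 2000 UMIs, 0.37 with each cell held to 1 kind, 0.35 without Nr4a1 UMIs, and 0.00 in cells of 3000 to 10000 UMIs, a window chosen after the data were seen.

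Smad3, which carries the signal into the nucleus, and Smad7, which blocks it, had their lowest values in Siglech cells, although Smad3 there was not below WT regulatory cells beyond counting error. Smad3 was at 24.6 CPM for WT against 30.2 CPM for VISTA-KO conventional CD4 cells, its highest level, and at 14.8 and 14.5 CPM in CD8 cells. In Siglech cells it was at 8.59 and 4.89 CPM, from 22 and 7 UMIs. In regulatory cells Smad3 was at 12.2 CPM (10.6 to 13.9) in WT, below CD8 cells, and at 20.8 CPM (18.01 to 23.9) in VISTA-KO, above them, with a genotype ratio of 1.71 (1.40 to 2.07). Its log2 ratio of 0.59 there was 0.81 after thinning, 0.39 with each cell held to 1 kind, and 0.27 at 3000 to 10000 UMIs. Conventional CD4 cells gave a Smad3 ratio of 1.23 (1.05 to 1.43), with a log2 ratio of 0.25 that was -0.03 after thinning and 0.03 without Nr4a1 UMIs, and CD8 cells 0.984 (0.864 to 1.12).

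Smad7 was at 136 CPM (132 to 140) for WT against 158 CPM (153 to 162) for VISTA-KO CD8 cells, a ratio of 1.16 (1.11 to 1.21). The differences were larger in conventional CD4 cells (147 and 207 CPM, ratio 1.41, 1.33 to 1.498) and regulatory cells (153 and 209 CPM, ratio 1.37, 1.29 to 1.45). On the log2 scale these were 0.48 and 0.44, just under the size counted, and above the 95th percentile of all genes, 0.27 and 0.37. Siglech cells did not share this direction, with 105 CPM (93.2 to 119) for WT against 97.9 CPM (82.3 to 115) for VISTA-KO. Conventional CD4 and regulatory cells could not be ordered by Smad7 beyond counting error in either library. Over all alternatives, the Smad7 log2 ratio lay between 0.19 and 0.27 in CD8 cells, 0.13 and 0.52 in conventional CD4 cells, and 0.23 and 0.50 in regulatory cells. These include cells without a Nr4a1 UMI but not those with it taken alone, where the CPM ratio in CD8 cells was 1.05 (0.996 to 1.11).

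The corepressor genes Ski and Skil were higher in conventional CD4 and regulatory cells than in CD8 cells. Skil stood at 66.8 and 72.1 CPM in CD8 cells of WT and VISTA-KO, 105 and 116 CPM in conventional CD4 cells, 92.9 and 139 CPM in regulatory cells, and 76.5 and 86.7 CPM in Siglech cells. Its genotype ratio was 1.498 (1.39 to 1.61) in regulatory cells, and 1.08 (1.02 to 1.14), 1.11 (1.03 to 1.19) and 1.13 (0.897 to 1.43) in CD8, conventional CD4 and Siglech cells. The regulatory log2 ratio of 0.56 remained above 0 under all 11 alternatives, from 0.31 to 0.58, and was lowest in cells of 3000 to 10000 UMIs. Without cells with an Mki67 UMI it was 0.42 (0.30 to 0.54), under the size counted. Such dividing cells were 460 of 1528 WT and 268 of 1270 VISTA-KO regulatory cells, with medians of 16486.5 and 8803 UMIs. Their part in the regulatory differences was not tested. Ski was at 16.4 and 16.1 CPM in CD8 cells, 26.7 and 30.5 CPM in conventional CD4 cells, 20.5 and 27.5 CPM in regulatory cells, and 10.2 and 14.7 CPM in Siglech cells. Its genotype ratio was 1.34 (1.14 to 1.58) in regulatory cells, while the intervals in the other 3 kinds included 1. The regulatory log2 ratio of Ski, 0.35, was 0.17 (-0.14 to 0.48) at 3000 to 10000 UMIs, 0.36 (-0.06 to 0.77) after thinning and 0.31 (-0.11 to 0.72) without Nr4a1 UMIs.

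Against CD8 cells, a log2 ratio of at least 1 in the same direction in both libraries was counted. It was reached by 1.19% of 6122 genes in conventional CD4 cells and by 3.03% of 6142 genes in regulatory cells, and by 0 of 7 and 0 of 6 of the genes described here. In Siglech cells, 18.2% of 6555 genes reached it, and of 6 genes Tgfbr1 did, which met the level only through Siglech cells, where it was high. The log2 ratios over CD8 cells were averaged over both libraries. Their median was 0.46, 0.43 and -0.35 for all 8 genes, also those under the level. For all genes that met the level it was 0.04, 0.03 and -0.04. The choice of the 8 genes with earlier results of these data known limits this comparison too. The Siglech median of the 8 includes Smad3 and Ski, which did not meet the level and were lower there than in CD8 cells.

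When the cells were divided into 12 states by Mki67, Pdcd1, Havcr2, Il7r, Tcf7 and Itgae UMIs, Tgif1 was higher in VISTA-KO in 12 of 12, with an interval above 1 in each. Mki67 marks dividing cells, Pdcd1 and Havcr2 encode the checkpoint receptors PD-1 and TIM-3, and Il7r and Tcf7 mark memory and stem-like cells. The Tgif1 ratio in CD8 cells ran from 1.48 (1.25 to 1.75) with Pdcd1 and Havcr2 (51.2 and 75.6 CPM) to 2.29 (1.91 to 2.77) with none of Pdcd1, Il7r and Tcf7 (52.1 and 120 CPM). Dividing CD8 cells gave 1.53 (1.34 to 1.73). The highest ratio was in regulatory cells with Itgae, 2.87 (2.49 to 3.31), from 75.3 to 216 CPM. Among WT states the CPM of Tgif1 spanned 29.3 to 81.1, and among VISTA-KO states 48.9 to 216.

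Smad7 was higher in 11 of the 12 states, with an interval above 1 in those 11, from 1.10 (1.02 to 1.19) in CD8 cells with Il7r or Tcf7 and no Pdcd1 to 1.53 (1.32 to 1.76) in dividing conventional CD4 cells. Skil was higher in 9 states, with 7 intervals above 1 and the highest ratio, 1.58 (1.39 to 1.80), in dividing regulatory cells. Tgfbr2 was lower in 10 states, as only dividing conventional CD4 cells (1.06) and regulatory cells with Itgae (1.01) were above 1, and 6 intervals were below 1. Its lowest ratio, 0.757 (0.667 to 0.858), was in CD8 cells with none of Pdcd1, Il7r and Tcf7, the state with the highest Tgif1 ratio among CD8 cells. Tgfb1 was higher in 11 states, with 7 intervals above 1, and Tgfbr1 in 10, with 4 above 1 and 1 below. Ski was higher in 9 states, with 1 interval above 1, and Smad3 in 6, with 5. The states of a kind share its definition and library and are not replicates. The share of all genes that reach such counts of states was not computed, also for Tgif1. The intervals cover counting error only, so a gene with many UMIs passes with a small ratio.

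**Figure D3:**
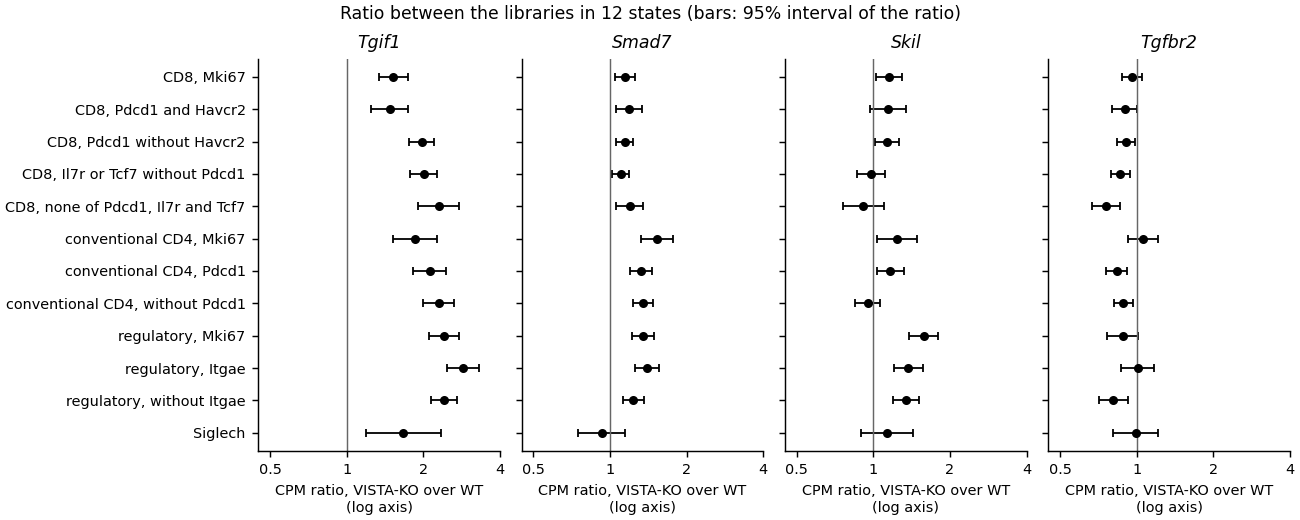
CPM ratio of VISTA-KO over WT (horizontal log axis) for Tgif1, Smad7, Skil and Tgfbr2 in 12 states of the cells (vertical axis), with 95% intervals of the ratio. Tgif1 lies right of 1 in 12 of 12 states, from 1.48 to 2.87, and Tgfbr2 lies left of 1 in 10.

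Nr4a1 moved with Tgif1 between the libraries, at 127 and 370 CPM in CD8 cells, 176 and 770 in conventional CD4 cells, and 193 and 795 in regulatory cells of WT and VISTA-KO. Cells were therefore split by a Nr4a1 UMI. In CD8 cells without it, Tgif1 was at 39.4 CPM for WT against 68.2 CPM for VISTA-KO, a ratio of 1.73 (1.57 to 1.91), and in those with it at 67.5 and 110 CPM, a ratio of 1.64 (1.52 to 1.76). The ratio without and with Nr4a1 was 1.74 (1.48 to 2.04) and 2.06 (1.84 to 2.31) in conventional CD4 cells, and 2.39 (2.01 to 2.84) and 2.66 (2.45 to 2.89) in regulatory cells. Tgif1 was thus higher in VISTA-KO on both sides of the split in the T cell kinds. Within a library it was also higher in cells with Nr4a1 than without, 1.71-fold in WT and 1.62-fold in VISTA-KO CD8 cells, 1.45 and 1.71-fold in conventional CD4 cells, and 1.28 and 1.42-fold in regulatory cells. Cells with a Nr4a1 UMI were deeper, with medians of 6101 against 4547.5 UMIs in WT CD8 cells. In regulatory cells the medians with and without it were 12357 and 5921 UMIs in WT, and 6538 and 4539 UMIs in VISTA-KO, so that depth also differed between the libraries there. In the 143 WT and 49 VISTA-KO Siglech cells without a Nr4a1 UMI, the log2 ratio of Tgif1 was -0.11 (-1.04 to 0.80).

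Smad7 was split in the same way, with no test of the differences between splits. In CD8 cells, its genotype ratio was 1.22 (1.14 to 1.29) without a Nr4a1 UMI and 1.05 (0.996 to 1.11) with it. Conventional CD4 cells gave the opposite order, 1.10 (0.991 to 1.22) without and 1.51 (1.39 to 1.64) with Nr4a1, and in regulatory cells it was 1.18 (1.02 to 1.36) and 1.37 (1.28 to 1.46). A list of 13 genes of stress and recent stimulation summed to 4322 and 5481 CPM in CD8 cells, 6359 and 9517 in conventional CD4 cells, 4033 and 7306 in regulatory cells, and 3404 and 3855 in Siglech cells of WT and VISTA-KO. The part of these transcripts in the differences was not tested. The split by Nr4a1 does not hold them equal, since a cell without a Nr4a1 UMI can still hold Nr4a1 RNA that was not sampled.

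**Figure D4:**
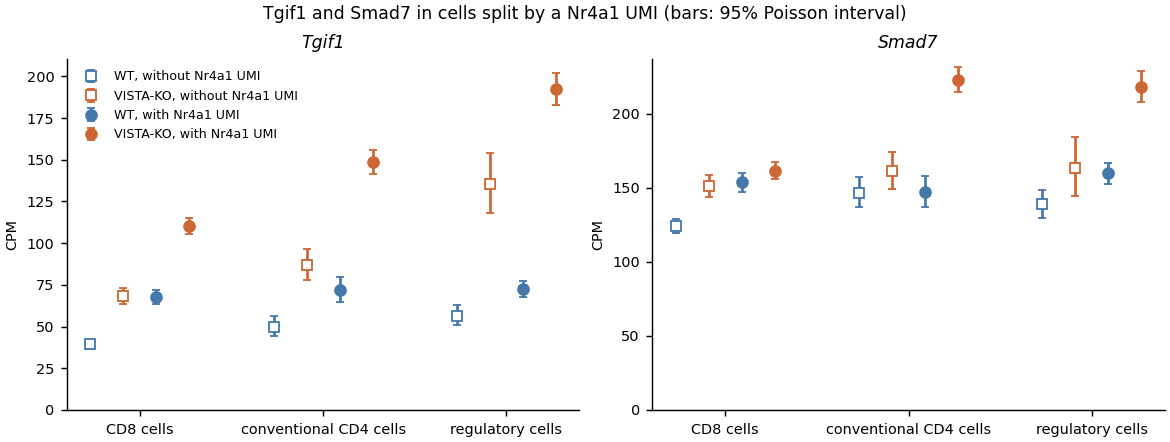
Level of Tgif1 and Smad7 in CPM (vertical axes, from 0) in T cells without (open squares) and with (filled circles) a Nr4a1 UMI, in WT (blue) and VISTA-KO (orange), with 95% Poisson intervals. Tgif1 in CD8 cells is 39.4 and 68.2 CPM without Nr4a1 and 67.5 and 110 CPM with it.

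More cells held a Tgif1 UMI in VISTA-KO. After thinning each cell to 2000 UMIs, a Tgif1 UMI was found in 9.20% (8.44 to 10.0) of CD8 cells in the WT library and 17.0% (15.8 to 18.1) in the VISTA-KO library. The shares were 11.3% (9.83 to 13.0) and 21.7% (20.2 to 23.2) of conventional CD4 cells, and 12.9% (11.2 to 14.7) and 28.8% (26.3 to 31.4) of regulatory cells. Siglech cells gave 2.73% (1.01 to 5.84) and 5.84% (2.55 to 11.2), from 6 of 220 and 8 of 137 cells. Shares carry exact Clopper-Pearson intervals. Without thinning they were 22.9% and 35.7% of CD8, 24.9% and 38.3% of conventional CD4, 43.3% and 60.0% of regulatory, and 20.8% and 26.1% of Siglech cells. Cells with 2 or more Tgif1 UMIs after thinning made up 1.24% and 3.36% of CD8 cells, 1.22% and 5.57% of conventional CD4 cells, and 2.77% and 8.29% of regulatory cells.

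Shares of the other genes were read in the same thinned cells. Smad7 was found in 24.6% and 28.3% of CD8 cells of WT and VISTA-KO, 25.03% and 31.0% of conventional CD4 cells, and 25.5% and 32.8% of regulatory cells. Tgfbr2 was found in 27.3% and 24.7% of CD8 cells and 35.4% and 32.6% of conventional CD4 cells. Skil differed in regulatory cells, with 19.4% (17.4 to 21.5) and 26.1% (23.6 to 28.7). Tgfbr1 in regulatory cells was found in 4.52% (3.52 to 5.70) and 4.92% (3.78 to 6.29). No kind of cell here is known to lack these genes, so no background share could be read for them. Cd3e, which plasmacytoid dendritic cells should lack, was read as a sign of mixing only. After thinning it was in 21.4% and 17.5% of Siglech cells, against 87.6% to 93.6% of T cells. Cd3e was far more abundant than the 8 genes, at 1583 CPM in WT CD8 cells against 50.9 CPM for Tgif1. Its shares are therefore no background for theirs. Of the Siglech cells, 183 of 221 in WT and 108 of 138 in VISTA-KO held Cd8a or Cd8b1 UMIs. Free RNA, doublets and RNA made by the Siglech cells themselves were not told apart. Median depths of WT and VISTA-KO were 9181 and 9485.5 UMIs in Siglech cells and 4848 and 5224.5 UMIs in CD8 cells. Thinning left out 290 and 186 CD8, 134 and 158 conventional CD4, 45 and 51 regulatory, and 1 and 1 Siglech cells.

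**Figure D5:**
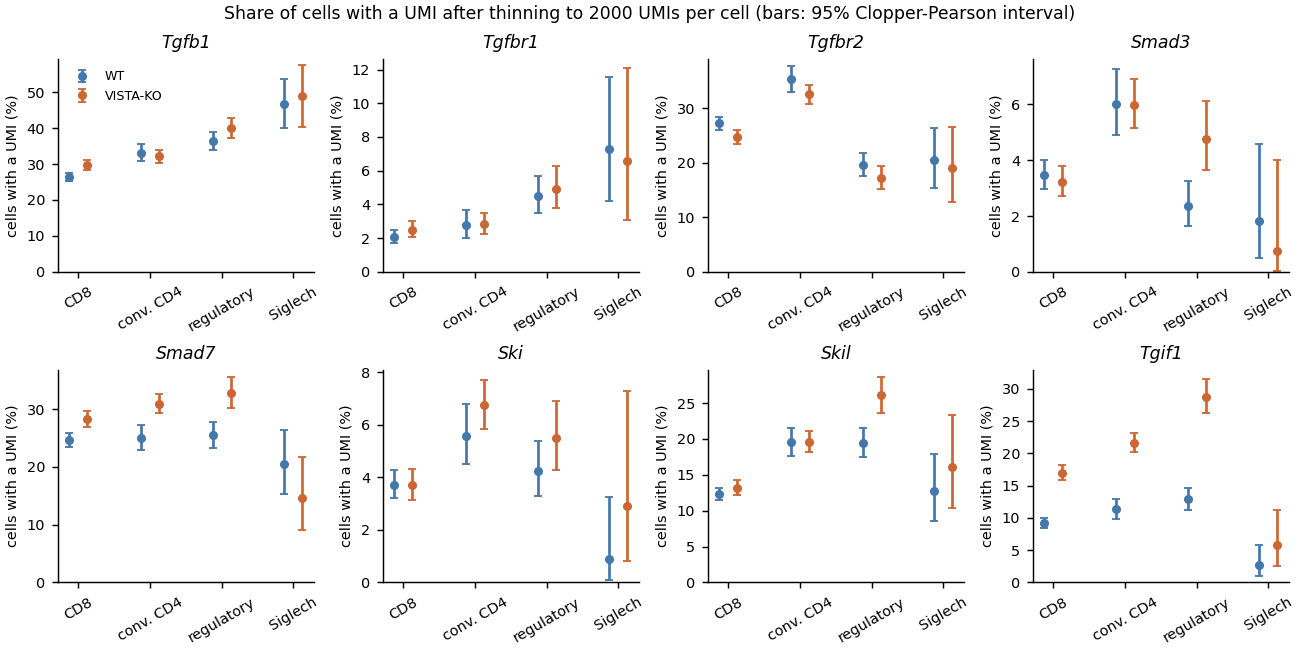
Percent of cells with a UMI of each gene after thinning to 2000 UMIs (vertical axes, from 0) in 4 kinds of cells, with WT in blue, VISTA-KO in orange and 95% Clopper-Pearson intervals. The intervals of the Tgif1 shares in the 3 T cell kinds do not overlap between the libraries, while those of Tgfbr1 overlap in every kind.

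Other genes of the pathway were read from 7 lists. Of 6 other SMAD genes, 2 or 3 met the level and 0 reached a log2 ratio of 0.5 in any kind. Smad2 was at 37.5 and 39.5 CPM and Smad4 at 39.4 and 40.6 CPM in CD8 cells of WT and VISTA-KO. Of the 10 corepressor partners, which include histone deacetylases and the NCOR and SIN3 scaffolds, 8 or 9 met the level, and Tgif2, the paralog of Tgif1, was counted in conventional CD4 cells (13.3 and 21.5 CPM, ratio 1.62, 1.33 to 1.98). Tgif2 met the level only through VISTA-KO. Of 15 modifiers of receptors and SMADs, 8 to 11 met it, and Ldlrad4, an inhibitor of SMAD phosphorylation, was counted in regulatory cells (14.2 and 22.3 CPM), where it met the level only through VISTA-KO. None of the 9 other receptor genes of the family met it in T cells.

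Among 12 genes of ligands and their release, Lrrc32, which encodes the TGF-beta docking receptor GARP of regulatory T cells, stood at 24.9 CPM for WT against 70.4 CPM for VISTA-KO regulatory cells, a ratio of 2.83 (2.51 to 3.19). The regulatory T cell markers moved with it, from 2564 to 3284 CPM in sum, and Cd8a and Cd8b1 the other way, from 857 to 389 CPM, and their part in the difference was not tested. In conventional CD4 cells, Furin, a protease that processes the ligand, was higher (51.9 and 79.4 CPM) and the integrin gene Itgav lower (113 and 76.9 CPM) in VISTA-KO. Of the conventional CD4 cells, 107 of 1768 in WT and 65 of 3048 in VISTA-KO were also Siglech cells.

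Among 10 genes known to be induced by TGF-beta in T cells, counts went both ways. Itgae was at 91.4 and 149 CPM in regulatory cells (ratio 1.63, 1.52 to 1.75), 21.2 and 31.9 CPM in CD8 cells (1.51, 1.37 to 1.66) and 24.3 and 25.1 CPM in conventional CD4 cells (1.03, 0.879 to 1.21). Rgs16, a regulator of G protein signaling, was at 276 and 427 CPM, and Foxp3 at 37.1 and 19.7 CPM, in CD8 cells. Foxp3 met the level there only through WT, where it was high. CD8 cells were not chosen by Foxp3, so regulatory cells whose Cd4 RNA was not sampled could enter this kind. Cd8a or Cd8b1 UMIs were in 794 of 1528 WT and 375 of 1270 VISTA-KO regulatory cells. The part of such mixing in the Foxp3 difference was not tested. The median log2 ratio of the genes that met the level was -0.10 in CD8, -0.13 in conventional CD4 and 0.24 in regulatory cells. The regulatory median includes Foxp3, which helped to set that kind. Among 10 genes known to be held down by TGF-beta, Gzmb, which encodes granzyme B, was at 747 and 1366 CPM and Ifng at 206 and 328 CPM in CD8 cells, while Gzma was at 331 and 198 CPM. In regulatory cells Gzmb was at 606 and 1088 CPM, and Gzma, Prf1 and Cx3cr1 were lower in VISTA-KO (148 and 72.6, 84.5 and 38.6, and 20.1 and 7.38 CPM), beside summed Cd8a and Cd8b1 levels of 857 and 389 CPM. Cx3cr1 met the level only through WT. Among conventional CD4 cells Prf1 was at 81.8 and 43.5 CPM, Tbx21 at 103 and 157 CPM and Fasl at 122 and 192 CPM, beside Cd8a and Cd8b1 levels of 897 and 457 CPM. The median was 0.20, 0.15 and -0.08 in CD8, conventional CD4 and regulatory cells.

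Finally, each gene was compared with all 7873 genes that reached 20 CPM in 1 of 24 profiles, the 12 states in both libraries, by Pearson r of log2(CPM + 5). The profiles share libraries and kinds of cells, so r is a description. Tgif1 was most like Nr4a1 (r = 0.94), followed by Gadd45b (0.92), a stress-inducible gene, and Cnbp (0.91). Smad7 was most like Pnrc1 (0.94), Ccnd2 (0.93), which encodes cyclin D2, and Junb (0.92). Tgfbr2 was most like Arid5a (0.92), Il12rb2 (0.91), which encodes an IL-12 receptor chain, and Commd8 (0.91). Skil was most like Socs2 (0.94), a cytokine signaling inhibitor, Tmem64 (0.93) and Cytip (0.92), and Ski was most like Axin2 (0.95), a WNT pathway inhibitor, Xylt1 (0.93) and Etv3 (0.92). Smad3 was most like Galnt10 (0.95), Mbp (0.94) and Dtx1 (0.93). Tgfb1 was most like Srebf2 (0.96), Mapkapk2 (0.95) and Rilpl2 (0.93), and Tgfbr1 was most like Sema4b, Sh3pxd2a and Dapp1 (0.94 each). Among the 8 genes themselves, r was highest for Ski with Smad3 (0.85), Smad7 with Tgif1 (0.84) and Ski with Skil (0.82), and lowest for Tgfb1 with Tgfbr2 (-0.59).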

How the data were processed

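RNA of single cells of 1 WT and 1 VISTA-KO pool was measured. The kit was 3′ by the labels and 5′, with receptor sequencing, by the methods. By the submitters' processing notes, the authors aligned reads with Cell Ranger 5.0.0 to GRCm38, and they deposited the count of UMIs of each gene in each barcode, without normalization (72098984 UMIs in WT and 59916814 in VISTA-KO). For receptors they deposited a count per contig, used here to find the largest clonotypes and cells with 2 or more beta chains.

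UMIs were summed per library and kind of cell and scaled to CPM, with Python 3.11.15, numpy 2.4.6, scipy 1.17.1 and pandas 2.3.3, and plotted with matplotlib 3.10.9. A pseudocount of 5 CPM understates the change of low genes. A sum gives deep cells more weight, and thinning to 2000 UMIs per cell removes that. Calculations were tested on simulated data. These held Poisson counting error only, with no spread between cells, mice or libraries, so they check the arithmetic and not the differences. With 1 library per genotype there was no test and no p-value. Doublets were kept, and removed in an alternative (cells with 2 or more beta chains, T cells with a Siglech UMI). Clusters were not used.

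All 8 genes are named, with the other pathway genes that met 20 CPM and a log2 ratio of 0.5 in size in T cells, Itgae, Smad2, Smad4, Lrrc32, and the 3 most similar genes each. Members and lists were chosen with earlier results of these data known. Alternatives were 9 planned ones, 3 chosen after seeing the data, and thinning to 4000 UMIs or none for shares. No cell annotation by the authors was used here.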

Additional observations from a re-analysis of the deposited data

Results flagged for a closer look

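Cells that met none of the 4 definitions, 1369 in WT and 1264 in VISTA-KO, were used in no comparison above, and Tgif1 differed there too, from 82.3 CPM for WT to 184 CPM for VISTA-KO, with a ratio of 2.23 (2.00 to 2.50). Cd3e was at 1236 and 1148 CPM and Nr4a1 at 261 and 918 CPM in these cells. Tgfbr2 was at 179 and 138 CPM, a ratio of 0.771 (0.700 to 0.848).

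The VISTA-KO over WT ratio of Tgfbr1 went opposite ways in different states, 1.78 (1.32 to 2.42) in regulatory cells with Itgae and 0.730 (0.557 to 0.961) in conventional CD4 cells without Pdcd1. This difference was not tested, since each state is 1 sample per genotype. After thinning, the level of Tgfbr1 was 12.2 CPM for WT against 16.1 CPM for VISTA-KO in conventional CD4 cells without Pdcd1, the other way round, and 21.6 against 36.8 CPM in regulatory cells with Itgae. The log2 ratio over all regulatory cells, 0.57, was 0.00 in cells of 3000 to 10000 UMIs, and that over all conventional CD4 cells, -0.05, was 0.23 with each cell held to 1 kind.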

How the results depend on the processing

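Of 72 member counts recomputed under the alternatives, 65 were unchanged within 1.5-fold, as were 697 of 816 log2 ratios within the counting interval. In regulatory cells, the count of 4 was 2 after thinning to 2000 UMIs (Smad3 and Tgif1), 1 with each cell held to 1 kind and 1 at 3000 to 10000 UMIs (Tgif1 in both). That count was 3 without cells with an Mki67 UMI, where Skil was not counted, and 3 without Nr4a1 UMIs, where Tgfbr1 was not counted. Tgif1 in regulatory cells lay between 1.17 and 1.43 on the log2 scale over 11 alternatives. In conventional CD4 cells, centring the ratios on their median gave 2 (Smad7 and Tgif1). In Siglech cells, the genotype count was 0 without Nr4a1 UMIs, where Tgif1 had a log2 ratio of -0.11. Over CD8 cells the Siglech count was 2 after thinning (Tgfbr1, and Tgif1, lower) and 2 without Nr4a1 UMIs (Tgfb1 and Tgfbr1). The cause of these changes was not tested. Tgif1 lay between 0.72 and 0.94 in CD8 cells, 0.74 and 1.22 in conventional CD4 cells, and -0.11 and 0.94 in Siglech cells. All 64 shares were higher without thinning than at 2000 UMIs. That is largely fixed in advance, since thinning removes UMIs from each cell. Leaving out barcodes found in both libraries, chosen after the data were seen, moved 0 of 80 log2 ratios beyond the counting interval. Siglech values rest on few UMIs. No paired analysis was possible because each genotype is 1 library.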
